A study of Mus musculus with 8 samples.

Results

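The 3 genes described here, Bdh1, Oxct1 and Acat1, encode the mitochondrial enzymes that turn ketone bodies into acetyl-CoA. They were chosen by name from the 39614 loci that carry a gene symbol among the 80155 loci of the RNA-seq tables, each of the 3 had 1 locus with its symbol alone, and all 3 passed the filter on low values. Transcripts were sequenced in whole hearts of male Hsd:ICR(CD-1) mice, an outbred strain, with the atrial appendages cut away, at postnatal day 1 (P1, 4 hearts) and postnatal day 7 (P7, 4 hearts). There was 1 library per heart, no treatment and no transgene, and the labels name a different mouse for each heart. The study asked what changes in metabolism between these stages, as the mouse heart loses its capacity to regenerate.

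Ketone bodies are small fuels that the liver makes from fatty acids and that heart muscle takes from the blood. In the heart, BDH1 oxidises 3-hydroxybutyrate to acetoacetate, SCOT (the product of Oxct1) moves CoA from succinyl-CoA onto acetoacetate, and the thiolase ACAT1 splits the resulting acetoacetyl-CoA into acetyl-CoA for the citric acid cycle. Synthesis, which is mainly a task of the liver, runs by another route, and ACAT1 and BDH1 take part in it in the opposite direction. Milk is rich in fat, and suckling pups are known for high levels of ketone bodies in blood.

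On GRCm38, in the GENCODE M21 annotation, Bdh1 lies on the plus strand of chromosome 16 from 31422280 to 31458901, with up to 7 exons in a coding transcript. Oxct1 lies on the plus strand of chromosome 15 from 4026383 to 4155344, with up to 17 exons. Acat1 lies on the minus strand of chromosome 9 from 53580522 to 53610382, with 12 exons, and overlaps no other annotated gene. The opening 60 bases of their coding sequences, read from GENCODE M21 transcripts, are shown with the start codon in capitals, next to those of the cytosolic thiolase Acat2 and the cytosolic HMG-CoA synthase Hmgcs1, because the results below set mitochondrial against cytosolic enzymes.
Bdh1: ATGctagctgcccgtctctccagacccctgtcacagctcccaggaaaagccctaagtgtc
Oxct1: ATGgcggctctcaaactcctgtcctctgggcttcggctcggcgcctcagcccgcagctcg
Acat1: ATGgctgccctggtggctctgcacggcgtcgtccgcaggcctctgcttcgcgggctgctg
Acat2: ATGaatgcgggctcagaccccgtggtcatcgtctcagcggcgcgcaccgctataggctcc
Hmgcs1: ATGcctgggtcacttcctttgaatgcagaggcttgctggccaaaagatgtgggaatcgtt

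In the mitochondrial enzymes this stretch encodes the start of the leader that directs the protein into mitochondria, and Acat2 and Hmgcs1 encode cytosolic proteins. The paralogs are well separated in sequence. Acat1 and Acat2 shared 57.6% of 1161 aligned coding bases, with no identical run longer than 11 bases. Oxct1 and its testis paralog Oxct2a shared 68.4% of 1548 aligned bases, with a longest run of 18.

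Expression was given as FPKM, a fragment count divided by transcript length and library size, so levels are per length and can be compared between genes. The deposited values give no counts, so the absolute depth behind them is unknown. Low values fell on steps of whole fragments, and the commonest ratio of those steps put 1 fragment at 1.23 to 1.62 times its worth in P1 replicate 1 in the other hearts, which makes P1 replicate 1 the deepest by this estimate. Loci with a symbol held between 27.3% and 66.9% of a heart's summed FPKM, so a heart's scale also depends on its other transcripts. Between any pair of hearts the correlation of log2(FPKM + 1) over annotated loci was 0.915 to 0.962.

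The hearts carried the transcripts of heart muscle. The 5 cardiomyocyte markers summed to 4890 to 9489 FPKM at P1 and 6909 to 10362 FPKM at P7. The atrial markers Myl7 and Sln were also present, at a summed 1283 to 2032 FPKM over all hearts. Limma called 3 of the 4 fibroblast markers (Col1a1, Dcn and Tcf21) and 1 of the 4 endothelial markers (Cdh5) higher at P7. All 8 had a positive log2 difference. Of all annotated loci tested, 7.74% were called higher and 67.6% had a positive difference. Of the brown fat markers Cidea was called higher at P7. Limma called 0 of 5 cardiomyocyte, 3 smooth muscle and pericyte and 3 leukocyte markers tested. It also called 0 of 2 red cell, 2 dividing cell, 2 atrial and 3 hepatocyte markers tested. Of these 20 markers, 9 had an unadjusted limma p under 0.05, and the share of all loci at that level is not given here. The 3 hepatocyte markers were uneven, with Alb at 40.3 and 23.7 FPKM in P1 replicates 1 and 3 and 0.29 to 5.63 FPKM in the other hearts. The brown fat marker Ucp1 stood at 3.08 and 10.3 FPKM in P7 replicates 2 and 4 and under 0.15 FPKM elsewhere. In whole hearts a smaller share of a cell type and less RNA per cell cannot be told apart.

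Bdh1 was the least abundant of the 3 enzymes and the one whose stages did not overlap. It stood at 2.55, 1.32, 2.31 and 2.58 FPKM in P1 replicates 1 to 4 and at 0.24, 1.16, 0.99 and 0.93 FPKM in P7 replicates 1 to 4. Every P7 heart was below every P1 heart, although P1 replicate 2 and P7 replicate 2 were close to each other. The mean was 2.19 ± 0.59 FPKM (SD, n = 4) at P1 and 0.83 ± 0.40 FPKM (SD, n = 4) at P7, a ratio of 2.64. On the log2(FPKM + 1) scale, which understates changes at such low levels, the difference was -0.81 with an SE of 0.23 and a 95% interval of -1.31 to -0.31.

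The difference in Bdh1 did not pass the test over all loci. The limma adjusted p (Benjamini-Hochberg over 43172 loci) was 0.075, and the exact two-sided permutation test on Bdh1 alone gave p = 0.0286, the smallest that 4 hearts against 4 allow. Of the 17960 annotated loci tested, 2.69% had every P7 heart below every P1 heart. When hearts were scaled by median ratios, Bdh1 passed with a log2 difference of -0.93 and an adjusted p of 0.035. Lower calls among annotated loci rose with that scaling from 72 to 660. Bdh1 also passed when the test covered only loci with 1 symbol (adjusted p = 0.039), where all calls rose from 1462 to 2352. Bdh1 did not pass with any 1 heart left out (limma adjusted p = 0.078 to 0.196). Nor did it pass without P1 replicates 1 and 3, the hearts with high Alb (log2 difference -0.68, adjusted p = 0.37). Only 37 annotated loci were called in that fit, against 1462 in the main processing.

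Among annotated loci tested, mean Bdh1 ranked at the 31.9 percentile at P1 and at the 9.39 percentile at P7. The antisense gene Gm15743, which overlaps Bdh1 on the minus strand, was listed at 0 in all 8 hearts.

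**Figure D1:**
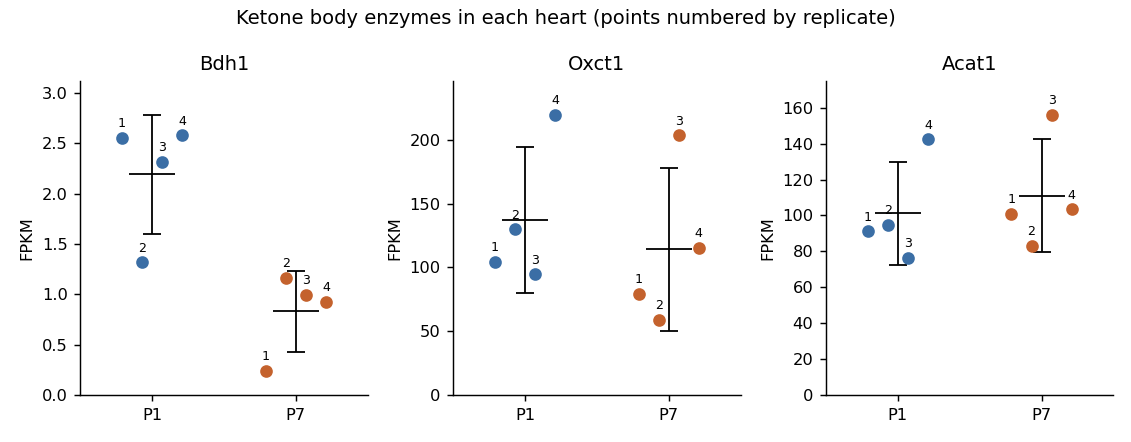
FPKM of Bdh1, Oxct1 and Acat1 in each heart at P1 (blue) and P7 (orange), numbered by replicate, with the mean and SD of 4 hearts in black. Bdh1 lies at 1.32 to 2.58 FPKM at P1 and at 0.24 to 1.16 FPKM at P7, while Oxct1 and Acat1 overlap between stages and are highest in P1 replicate 4 and P7 replicate 3.

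RefSeq gives Bdh1 2 start sites and Oxct1 1, and the 300 bases around each (250 before the start and 50 after, GRCm38.p6, plus strand) are printed because Bdh1 and Oxct1 differ so widely in level. Capitals mark the GC box (GGGCGG on either strand).
Bdh1 start 1, chr16:31422047-31422346: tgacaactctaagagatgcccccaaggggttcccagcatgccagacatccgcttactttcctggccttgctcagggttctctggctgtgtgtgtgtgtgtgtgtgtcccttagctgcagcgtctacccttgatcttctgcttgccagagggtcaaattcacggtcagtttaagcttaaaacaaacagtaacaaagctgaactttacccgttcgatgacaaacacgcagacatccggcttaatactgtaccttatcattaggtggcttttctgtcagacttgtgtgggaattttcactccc
Bdh1 start 2, chr16:31428503-31428802: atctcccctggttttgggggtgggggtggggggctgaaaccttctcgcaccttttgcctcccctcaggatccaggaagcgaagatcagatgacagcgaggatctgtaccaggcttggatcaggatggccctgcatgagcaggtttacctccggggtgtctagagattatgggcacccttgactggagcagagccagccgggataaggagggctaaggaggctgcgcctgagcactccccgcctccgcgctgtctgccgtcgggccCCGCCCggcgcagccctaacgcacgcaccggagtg
Oxct1, chr15:4026178-4026477: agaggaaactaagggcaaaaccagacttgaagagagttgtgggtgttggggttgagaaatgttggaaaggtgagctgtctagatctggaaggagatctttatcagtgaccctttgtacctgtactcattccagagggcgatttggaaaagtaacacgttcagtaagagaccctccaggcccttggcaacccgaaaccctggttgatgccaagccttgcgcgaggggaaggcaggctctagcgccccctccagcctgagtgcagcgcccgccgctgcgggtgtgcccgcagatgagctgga

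The windows were searched on both strands for the ERR response element (TCAAGGTCA), the nuclear receptor element (AGGTCA), the direct repeat of that element bound by PPARs, the NRF1 site, the E-box (CACGTG), the GC box, the CCAAT box (CCAAT) and the TATA box (TATAAA). The nuclear receptor element is part of the ERR element, so each ERR match also counts as one. The only match in these 3 windows was 1 GC box at the second Bdh1 start. Over all 32851 promoters of the table, 35.7% held a GC box, 37.4% a CCAAT box, 16.3% a nuclear receptor element, 13.6% a TATA box, 7.15% an E-box, 4.60% an NRF1 site, 0.423% an ERR element and 0.381% the direct repeat.

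Oxct1, whose enzyme commits acetoacetate to oxidation and is the step that the liver lacks, was the most abundant of the 3 at P1. It stood at 104, 130, 94.5 and 220 FPKM in P1 replicates 1 to 4. At P7 it stood at 79.4, 58.6, 203 and 115 FPKM. The stages overlapped, with P1 replicate 4 and P7 replicate 3 far above the other hearts of their stage. The mean was 137 ± 57.1 FPKM (SD, n = 4) at P1 and 114 ± 63.9 FPKM (SD, n = 4) at P7.

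The log2 difference of Oxct1 was -0.34 with an SE of 0.36 and did not pass the test (limma adjusted p = 0.59). Its 95% interval ran from -1.13 to 0.45, so ratios of P7 to P1 between 0.458 and 1.37 were within the error of 4 hearts a stage, and the miss does not show that the level stayed the same. Without P7 replicate 3 the difference was -0.67 (adjusted p = 0.37), and without P7 replicate 2 it was -0.07 (adjusted p = 0.90). The difference was -0.08 without P1 replicate 4 (adjusted p = 0.88). The 2 hearts with the highest Oxct1 also had the highest median-ratio factors of their stages, 1.14 in P1 replicate 4 and 1.25 in P7 replicate 3, and dividing by these factors gave 192 and 162 FPKM there.

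Oxct1 ranked at the 97.2 percentile of annotated loci at P1 and at the 96.1 percentile at P7. Opposite-strand genes overlap its locus. Of these Gm15632 was at 5.23 to 12.7 FPKM at P1 and 3.00 to 13.02 FPKM at P7, and BC037032 was at 0.41 to 2.13 FPKM over all hearts, well below Oxct1 in each heart. Whether the counting used strand is not stated, so fragments from the shared stretches could belong to either gene. The testis paralogs Oxct2a and Oxct2b, whose coding sequences are 98.5% identical, reached at most 0.069 FPKM in any heart.

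Acat1, which also acts in isoleucine breakdown, had the smallest difference of the 3 between the stages. It stood at 91.1, 94.7, 76.2 and 142 FPKM in P1 replicates 1 to 4 and at 101, 83.1, 156 and 103 FPKM in P7 replicates 1 to 4. The stages overlapped, and P1 replicate 4 and P7 replicate 3 were the highest of their stages, as for Oxct1. The mean was 101 ± 28.7 FPKM (SD, n = 4) at P1 and 111 ± 31.5 FPKM (SD, n = 4) at P7.

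The log2 difference of Acat1 was 0.13 with an SE of 0.25 and a 95% interval of -0.41 to 0.67 (limma adjusted p = 0.76). The sign itself was not settled. It was -0.11 after median-ratio scaling, -0.089 after quantile normalization, -0.045 without P7 replicate 3 and -0.11 without P1 replicates 1 and 3. Without P1 replicate 4 it was 0.31 (adjusted p = 0.36). The cytosolic thiolase Acat2, which supplies acetoacetyl-CoA for sterol synthesis, was far lower, at 1.25 to 3.02 FPKM over all hearts. Its log2 difference was -0.25 with an SE of 0.21 (adjusted p = 0.49).

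A call needed an adjusted p under 0.05 together with a 1.5-fold or larger difference in mean FPKM, and by this rule limma called 0 of the 3 enzymes. At an unadjusted p under 0.05 the same fit gave 1, Bdh1. The share of all loci at that unadjusted level is not given, here or for the pathway genes below. By the rule with adjusted p, 7.74% of the 17960 annotated loci tested were called higher at P7 and 0.401% lower. Higher calls made up 95.1% of all calls on the deposited scale and 68.7% after median-ratio scaling, which moved the median log2 difference of annotated loci by -0.18, from 0.19 to 0.01. Against that median of 0.19, Bdh1 and Oxct1 lay on the lower side and Acat1 lay close to it.

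**Figure D2:**
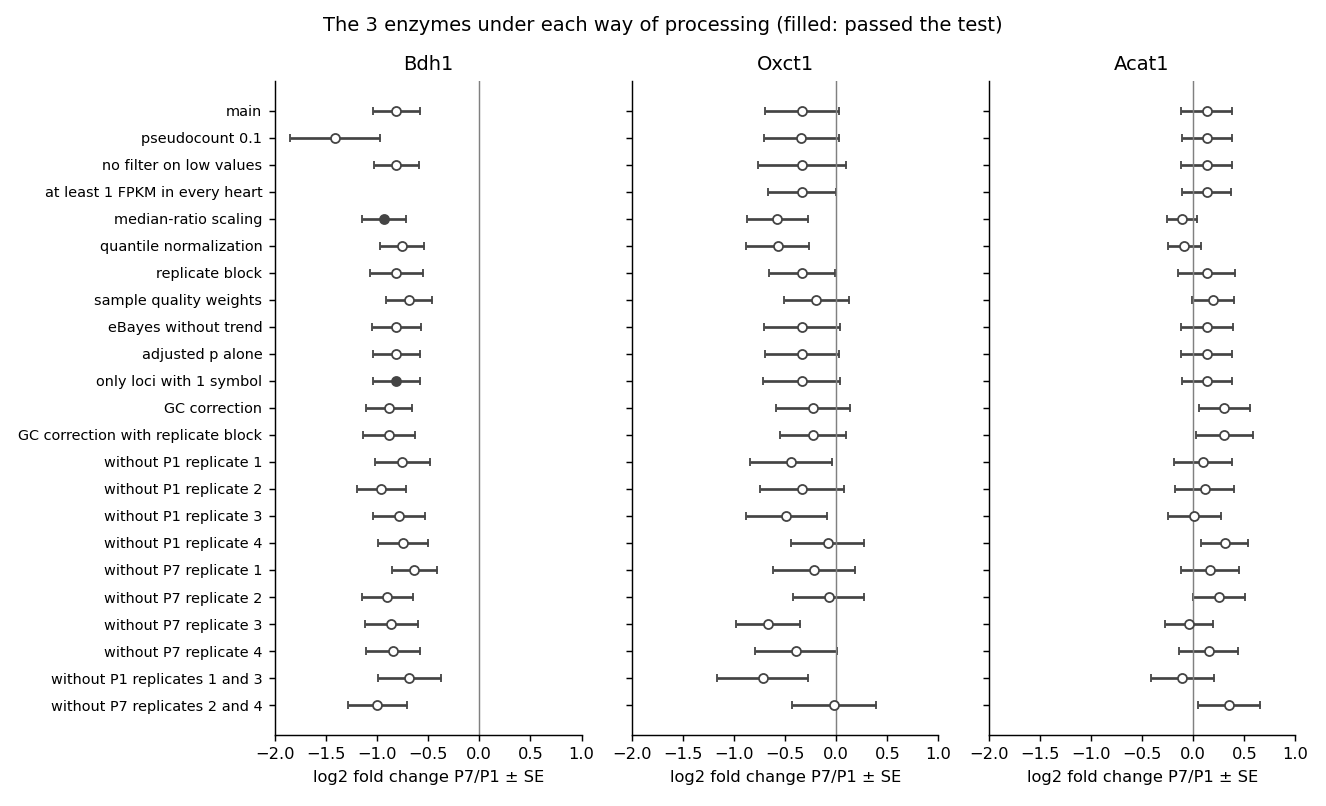
Log2 difference P7 minus P1 (± SE) of each enzyme on a shared axis, under the main processing and each alternative, with filled points where the test was passed. Bdh1 stays below 0 throughout and is filled under median-ratio scaling and with loci of 1 symbol, Oxct1 ranges from -0.72 to -0.02, and Acat1 lies on both sides of 0.

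A ratio of FPKM within a heart does not depend on how that heart was scaled. The ratios were compared between stages as log2 of (FPKM + 1), where the added 1 brings back some dependence for a gene as low as Bdh1. P was adjusted over the 6 ratios that were computed, of which 4 are given. With 4 hearts against 4 the exact test allows no p under 0.0286. After adjustment no ratio could pass unless most of the 6 reached that value, so a miss does not show that a ratio stayed the same. Oxct1 exceeded Bdh1 in all 8 hearts, by 40.7, 98.4, 40.9 and 85.2 times in P1 replicates 1 to 4 and by 328, 50.4, 205 and 124 times in P7 replicates 1 to 4 on the FPKM scale. The stages overlapped, since P7 replicate 2 was below some P1 hearts on this scale. The difference of mean log2 ratios was 0.47 (exact permutation p = 0.37, adjusted over the 6 ratios p = 0.37), it was -0.03 without P1 replicates 1 and 3, and it was 1.07 with a pseudocount of 0.1 (adjusted p = 0.11).

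The ratio of Acat1 to Bdh1 differed more. Its mean log2 value was 4.98 ± 0.42 (SD, n = 4) at P1 and 5.93 ± 0.51 (SD, n = 4) at P7, a difference of 0.94 that equals 1.92-fold on this scale. It did not pass (exact permutation p = 0.086, adjusted p = 0.14), nor did the 1.55 found with a pseudocount of 0.1 (adjusted p = 0.11). Acat1 was lower than Oxct1 in all 4 P1 hearts and higher in 2 of the 4 P7 hearts, replicates 1 and 2. The mean log2 ratio of Acat1 to Oxct1 was -0.39 ± 0.19 (SD, n = 4) at P1 and 0.08 ± 0.41 (SD, n = 4) at P7 (exact permutation p = 0.11, adjusted p = 0.14). Thus the order was Oxct1, Acat1, Bdh1 in every P1 heart, while at P7 only the last place was shared by all hearts.

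**Figure D3:**
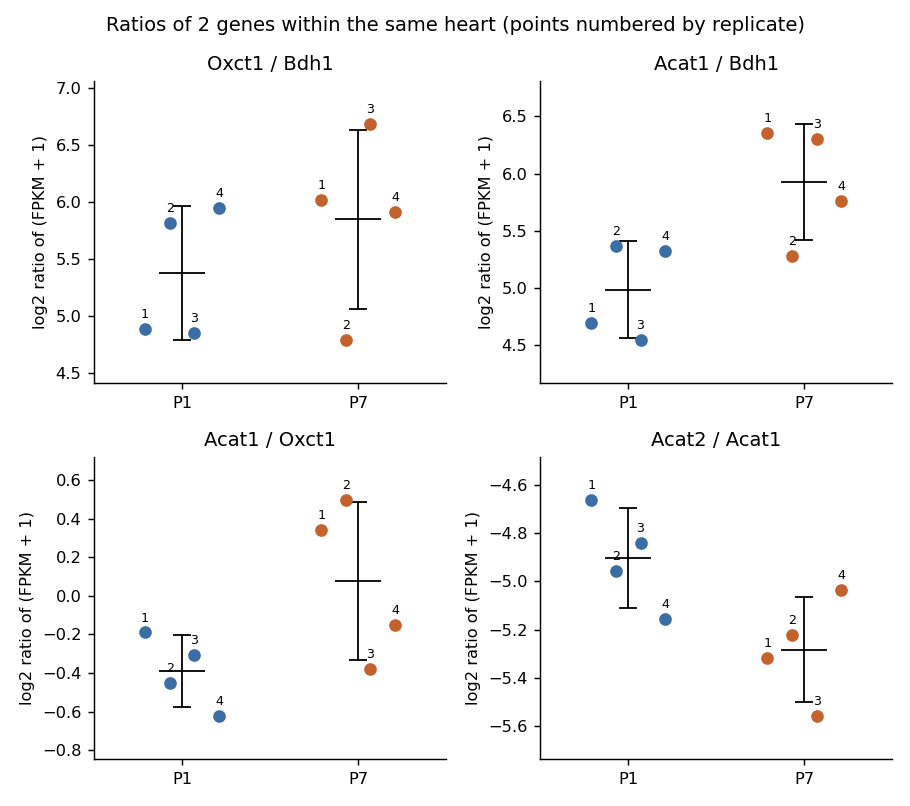
Log2 ratio of (FPKM + 1) of 4 gene pairs in each heart at P1 (blue) and P7 (orange), numbered by replicate, with the mean and SD of 4 hearts in black and a separate axis per panel. The stages overlap in each pair, and none of the 4 passes after adjustment.

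**Figure D4:**
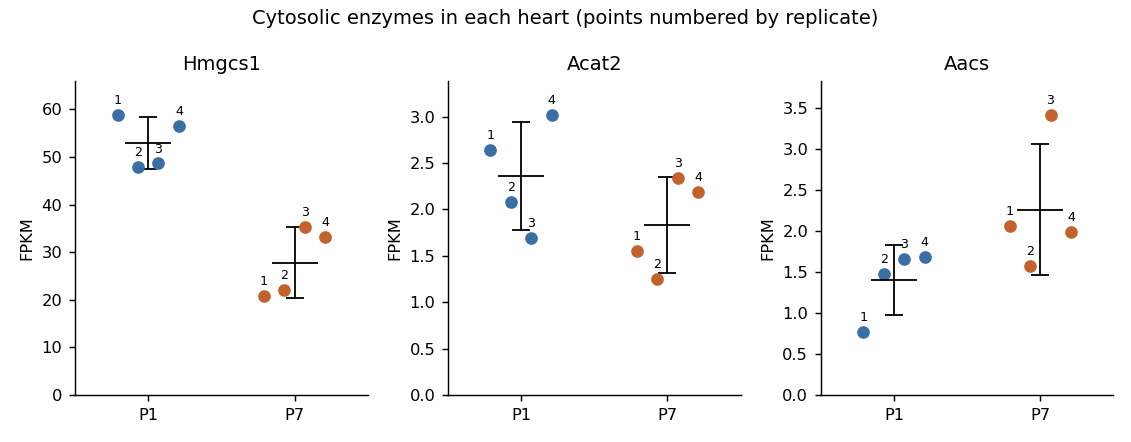
FPKM of the cytosolic enzyme genes Hmgcs1, Acat2 and Aacs in each heart at P1 (blue) and P7 (orange), numbered by replicate, with the mean and SD of 4 hearts in black. Hmgcs1 lies at 47.9 to 58.9 FPKM at P1 and 20.7 to 35.2 FPKM at P7 without overlap, while Acat2 and Aacs overlap between the stages.

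The cytosolic synthase Hmgcs1, which feeds sterol synthesis, was the only pathway gene called lower at P7. It stood at 58.9, 47.9, 48.6 and 56.5 FPKM in P1 replicates 1 to 4 and at 20.7, 22.1, 35.2 and 33.2 FPKM in P7 replicates 1 to 4, with no overlap. The log2 difference was -0.94 with an SE of 0.21 and an adjusted p of 0.033 in limma. The call was lost when P1 replicate 1, 2 or 3 or P7 replicate 1 or 2 was left out, with differences of -0.81 to -0.98 in those fits and adjusted p up to 0.10, and it was lost after GC correction (-0.70, adjusted p = 0.13). After median-ratio scaling the difference was -1.17 (adjusted p = 0.0073).

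The Hmgcs1 promoter is printed because Hmgcs1 was the pathway gene called lower, with capitals for matches to the motifs above (GRCm38.p6, plus strand, chr13:119690101-119690400).
Hmgcs1: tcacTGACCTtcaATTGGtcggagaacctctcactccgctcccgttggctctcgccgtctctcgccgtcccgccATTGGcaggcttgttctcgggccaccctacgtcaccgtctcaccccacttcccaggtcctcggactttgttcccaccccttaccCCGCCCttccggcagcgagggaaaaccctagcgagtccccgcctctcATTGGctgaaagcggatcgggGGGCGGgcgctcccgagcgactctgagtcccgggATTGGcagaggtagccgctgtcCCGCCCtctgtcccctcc

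This window held 1 nuclear receptor element, 3 GC boxes and 4 CCAAT boxes, where the Oxct1 window and the first Bdh1 window held none of the 8 motifs.

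Acat2 against Acat1, the pair of cytosolic and mitochondrial thiolases, stood at a mean log2 ratio of -4.90 ± 0.21 at P1 and -5.28 ± 0.22 at P7 (SD, n = 4 each), a difference of -0.38 (exact permutation p = 0.057, adjusted p = 0.14). Aacs, which activates acetoacetate in the cytosol, was at 1.40 ± 0.43 FPKM at P1 and 2.26 ± 0.80 FPKM at P7 (SD, n = 4 each, adjusted p = 0.32).

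Over all pathway lists 53 genes were considered, of which 52 had a locus and 47 were tested. Of these 4 were called higher at P7 and 1 lower, and 36 had a positive log2 difference. Of all annotated loci tested 7.74% were called higher and 0.401% lower, and 67.6% had a positive difference. The median of the pathway genes was 0.27, where the median of all annotated loci tested was 0.19. The genes called higher were Bsg, Bckdha, Pdk4 and Esrra. None of the 5 was called with no filter on low values or without P1 replicate 2, where 231 and 167 annotated loci were called. Nor was any called without P1 replicates 1 and 3 (high Alb) or without P7 replicates 2 and 4 (high Ucp1). The counts of annotated loci there were 37 and 337, against 1462 in the main processing. Without P1 replicate 4, 11 pathway genes and 2835 annotated loci were called.

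Ketone bodies enter cells through monocarboxylate transporters, some of which need the chaperone basigin to reach the membrane. Bsg rose from 326 ± 54.3 to 754 ± 144 FPKM (SD, n = 4 each), with P1 hearts at 253 to 378 FPKM and P7 hearts at 629 to 911 FPKM (log2 difference 1.20, SE 0.22, adjusted p = 0.018). The call was lost without P1 replicate 2 (1.20, adjusted p = 0.071) and after GC correction (0.81, adjusted p = 0.085). The transporter genes did not pass. Slc16a1, the main form in heart, was at 81.8 ± 5.37 FPKM at P1 and 76.6 ± 21.5 FPKM at P7 (SD, n = 4 each). Slc16a3, the form associated with lactate export, was at 5.80 ± 1.16 and 3.84 ± 2.19 FPKM (SD, n = 4 each).

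SCOT takes its CoA from succinyl-CoA, and the 5 tested genes around this metabolite (Suclg1, Suclg2, Sucla2, Ogdh and Dlst) gave 0 limma calls and 1, Ogdh, at an unadjusted p under 0.05. Their log2 differences ran from -0.13 to 0.60 with a median of 0.20. The highest, Ogdh, a subunit of the complex that makes succinyl-CoA, was at 82.7 ± 11.1 FPKM at P1 and 129 ± 37.7 FPKM at P7 (SD, n = 4 each, adjusted p = 0.18).

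The other thiolases were all on the positive side, from 0.07 for Hadhb to 0.65 for Scp2, where 67.6% of all annotated loci were positive, with 0 of 5 called by limma and 1, Scp2, under an unadjusted p of 0.05. Hadhb and Acaa2, which act in fatty acid oxidation, were at 215 ± 13.5 and 171 ± 71.7 FPKM at P1 (SD, n = 4 each), above Acat1 on the same per-length scale.

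Leucine breakdown ends in acetoacetate and acetyl-CoA, and isoleucine breakdown in propionyl-CoA and acetyl-CoA. Of the 11 genes listed for both, 1 was called higher, against 7.74% of all annotated loci tested. Bckdha, a subunit of the branched-chain keto acid dehydrogenase, rose, from a range of 7.41 to 13.5 FPKM in the P1 hearts to one of 19.3 to 33.0 FPKM in the P7 hearts (log2 difference 1.16, SE 0.23, adjusted p = 0.022). Its partners in the same complex, Bckdhb and Dbt, had differences of 0.13 and -0.35 and did not pass (adjusted p = 0.72 and 0.39). The Bckdha call was lost when replicate 2 or 3 of P1, or 1 or 3 of P7, was left out, with log2 differences of 1.00 to 1.20 and adjusted p of 0.056 to 0.083, and after GC correction (0.75, adjusted p = 0.12).

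Among the 8 genes of acetyl-CoA entry 8 differences were positive, against 67.6% of all annotated loci, and 1 was called higher, against 7.74%. Pdk4, the kinase that holds back pyruvate dehydrogenase, rose from 39.6 ± 12.1 to 96.9 ± 28.2 FPKM (SD, n = 4 each, log2 difference 1.26, SE 0.27, adjusted p = 0.027). It was lost, with adjusted p of 0.051 to 0.093, when any 1 of P1 replicates 1, 2 and 3 or P7 replicates 1, 2 and 4 was left out, and after quantile normalization (1.03, adjusted p = 0.062). Crat, which exchanges acetyl groups between CoA and carnitine, had a difference of 0.99 (adjusted p = 0.099), and the locus of Cpt1b, a carnitine palmitoyltransferase of muscle that shares its locus with Chkb, had 0.79 (adjusted p = 0.10).

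Of 5 tested regulators 1 was called higher, against 7.74% of all annotated loci tested. Esrra, a nuclear receptor of mitochondrial genes, rose, from a range of 23.4 to 33.5 FPKM in the P1 hearts to one of 40.8 to 57.4 FPKM in the P7 hearts (log2 difference 0.78, SE 0.19, adjusted p = 0.045). It was lost after median-ratio scaling, where the ratio was under 1.5 (0.54, adjusted p = 0.027), likewise after quantile normalization (0.52), after GC correction (0.81, adjusted p = 0.059), and when any heart other than P1 replicate 4 or P7 replicate 2 was left out (0.68 to 0.85, adjusted p up to 0.14). Ppara, the receptor that drives ketone synthesis in liver, was at 3.89 ± 1.43 FPKM at P1 and 4.20 ± 0.63 FPKM at P7 (SD, n = 4 each, adjusted p = 0.74). Fgf21 stayed under 1 FPKM in every heart and was not tested, and Hcar2, a receptor for 3-hydroxybutyrate, matched no locus.

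**Figure D5:**
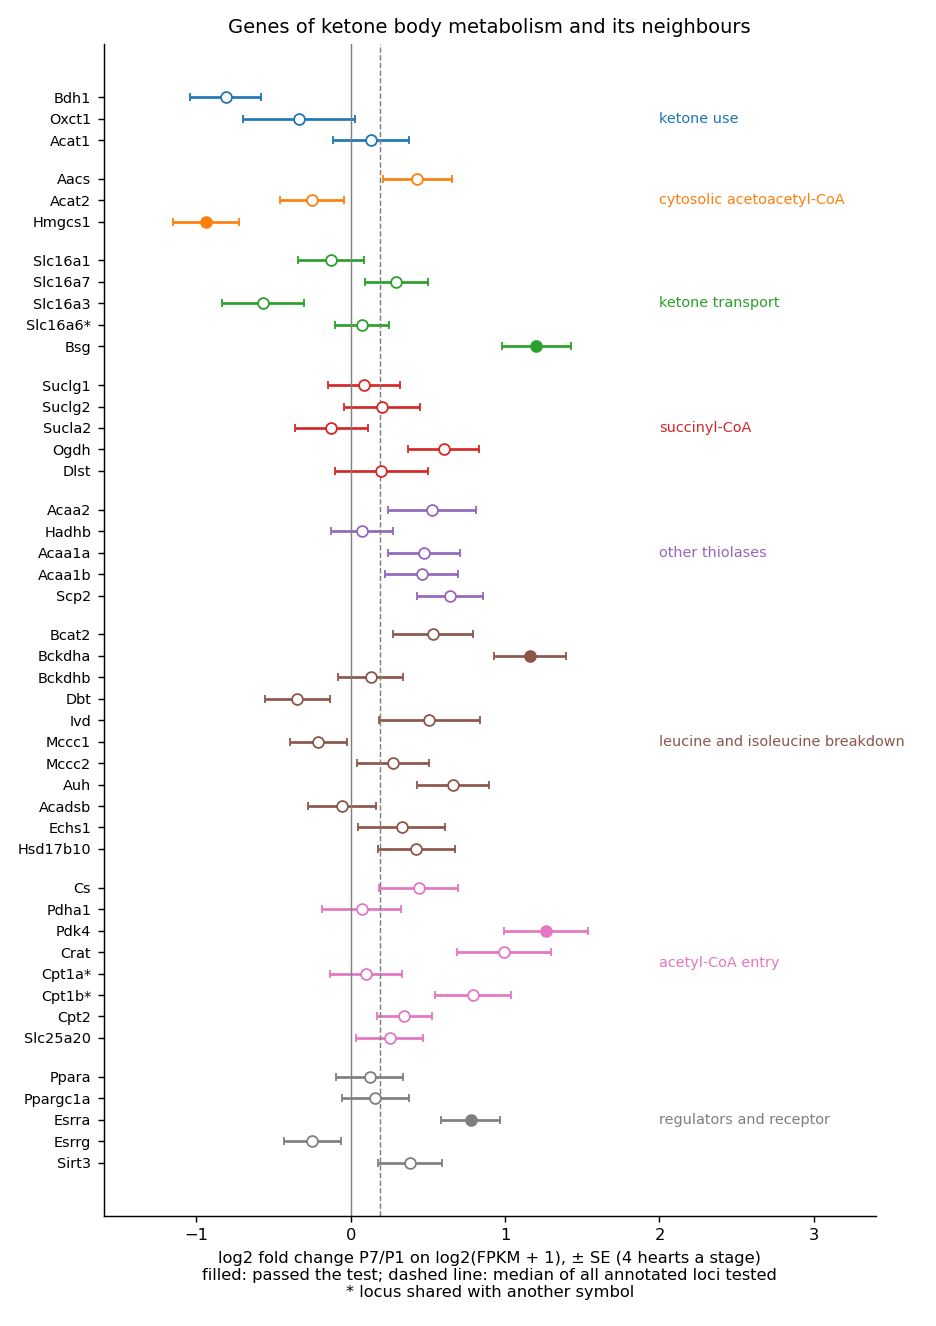
Log2 difference P7 minus P1 (± SE, 4 hearts a stage) of tested pathway genes grouped by role, with filled points where the test was passed and a dashed line at 0.19, the median of all annotated loci. Bdh1 and Acat1 belong to both ketone use and synthesis and are drawn once, the filled points are Hmgcs1 on the left and Bsg, Bckdha, Pdk4 and Esrra on the right, and an asterisk marks a locus shared with another symbol.

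The loci whose pattern over the 8 hearts was most like each enzyme were found by Pearson's r on log2(FPKM + 1) among 5652 other loci (5653 for Bdh1) with 1 symbol and a mean of at least 10 FPKM. For Oxct1 they included Fam198b (r = 0.99), Prep (0.98) and Coa5 (0.98). For Acat1 they were Eif4a3 (0.99), Ldhb (0.99), Dnaja2 (0.98) and Cct7 (0.98). For Bdh1 they were Sc4mol (0.89), Olfr608 (0.88), Fam98a (0.87) and Wdr75 (0.87). Between the enzymes r was 0.85 for Oxct1 with Acat1, 0.31 for Bdh1 with Oxct1 and -0.08 for Bdh1 with Acat1, over 8 hearts that share library scale and stage.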

How the data were processed

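RNA was extracted by the study from 8 hearts (4 P1, 4 P7), depleted of ribosomal RNA and made into paired-end libraries with the ScriptSeq v2 kit. The FPKM values were deposited by the authors, 1 table per heart, after a service provider aligned reads to GRCm38 (named in the submitters' processing notes) with Ensembl 70 annotation and summed them per assembled locus. The aligner, counter, their versions and the strand setting are not given in the sources used here. FPKM hides the absolute depth and depends on what else a library holds.

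Symbols joined by commas were split and matched without regard to case, and the locus of highest mean FPKM was taken. The 43172 loci that reached 1 FPKM in any heart were tested on log2(FPKM + 1) with limma 3.58.1 (R 4.3.3; lmFit and eBayes with trend, all 8 hearts, no covariates). P was adjusted by Benjamini-Hochberg over all of them, and a call needed an adjusted p under 0.05 together with a 1.5-fold or larger difference in mean FPKM. Ratios within a heart were compared with a two-sided exact permutation test over 70 assignments and adjusted over 6 ratios. Scripts ran in Python 3.11.15 (pandas 2.3.3, scipy 1.17.1) and were tested on simulated data. P-values measure the spread between single hearts of separate mice.

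The genes named were the 3 enzymes, genes of 9 pathway lists and 10 marker lists, and the 4 most similar loci per enzyme. Members, lists and ratios were chosen with earlier results of these data known. Alternatives were a pseudocount of 0.1, other filters, scalings, weights and variance models, a replicate block, GC correction and leaving out each heart. GC correction (lowess span 0.3) changed only the 15430 of the 43172 loci tested that had known transcript GC, 85.9% of annotated loci tested. Leaving out P1 replicates 1 and 3, or P7 replicates 2 and 4, was added after seeing the data. Gene positions, exons and coding sequences came from GENCODE M21 and promoters from RefSeq, which gave none for Acat1. Some genes covered by these rules are not reported here, though they are included in the counts over lists.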

Additional observations from a re-analysis of the deposited data

Results flagged for a closer look

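A heart was set apart where its gap to the nearest of the other 3 hearts of its stage took up more of the stage's range than Dixon's 95% value for 4 samples. Of 166 gene and ratio groups examined, 8 did so, where chance at 1 in 20 gives 8.3. None was Bdh1, Oxct1, Acat1 or a ratio. Slc16a3, a monocarboxylate transporter, was at 7.10 FPKM in P7 replicate 3 against 2.47 to 3.16 in the other P7 hearts. Mccc2, of leucine breakdown, was at 13.98 FPKM in the same heart against 7.67 to 8.72, and its partner Mccc1 was at 19.35 FPKM in P1 replicate 2 against 16.1 to 16.3. In P1 replicate 4, Pdgfra was at 14.66 FPKM against 7.65 to 8.76, Myh11 at 3.37 FPKM against 1.47 to 1.72, and Mki67 at 17.81 FPKM against 10.02 to 11.3. Myl7 was at 1446 FPKM in P1 replicate 1 against 1135 to 1157, and Sln at 668 FPKM in P7 replicate 1 against 364 to 390.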

How the results depend on the processing

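Bdh1 kept its sign in all 21 alternatives that could be run (-1.41 to -0.63), and Oxct1 in all 22 (-0.72 to -0.02). A filter of 1 FPKM in every heart leaves Bdh1 untested. Bdh1 passed under median-ratio scaling (-0.93) and with loci of 1 symbol only (-0.81). Acat1 changed sign under median-ratio scaling (-0.11), quantile normalization (-0.089) and without P1 replicates 1 and 3 (-0.11), and ran from -0.045 to 0.31 with 1 heart left out. Oxct1 against Bdh1 changed sign without P1 replicates 1 and 3 (-0.034). The other 5 ratios kept their sign in 13 alternatives each, and none of the 6 passed in any. But 4 pairs allow no p under 0.125 with the block and 2 hearts against 4 none under 0.0667, so those settings could not pass. With 3 or 4 hearts against 4 the smallest p is 0.0286. After adjustment no ratio could then pass unless most of the 6 reached that value.

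On the deposited scale limma called 1462 annotated loci and 5 pathway genes. The counts were 231 and 0 with no filter on low values, 2573 and 11 with 1 FPKM in every heart, 2951 and 11 with sample weights, 416 and 1 with GC correction, 416 and 2 with GC correction and the replicate block, 37 and 0 without P1 replicates 1 and 3, and 337 and 0 without P7 replicates 2 and 4. They were 941 loci without the trend, 2352 with loci of 1 symbol and 3 pathway genes with quantile normalization. With 1 heart left out they ran from 167 to 2835 loci and from 0 to 11 pathway genes, lowest without P1 replicate 2 and highest without P1 replicate 4. The cause was not tested.

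Same-numbered hearts did not deviate together (correlations of -0.10 to 0.12, and 1 of 4 numbers correlated best with itself). No pairing by number was seen in these correlations, and whether the numbers mark a shared batch was not tested. With the replicate block 1052 loci and 4 pathway genes were called, and Bdh1 (-0.81, adjusted p = 0.10), Oxct1 and Acat1 were not, nor were Hmgcs1 (adjusted p = 0.053) and Esrra (adjusted p = 0.10). Of 961 values of other pathway genes, 835 kept sign and call, 51 lost a call, 21 gained one and 54 changed sign without a call in either setting.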
